A study of Homo sapiens with 3 samples.

Results

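The genes described are *PLAU*, *PLAT*, *PLAUR*, *SERPINE2*, *SERPINB2*, *F3* and *SRPX2*, the cell's own components of plasminogen activation together with tissue factor and an extracellular ligand of the urokinase receptor. They were picked by name and found on the array through the RefSeq accession of each probe. These 7 genes had 8 probes, of 47753 names and 58201 probes in all. *PLAU* had 2 probes and the other members had 1 each. The cells were A549, an established human line derived from a lung adenocarcinoma, grown in their normal culture medium. The mock group received the transfection reagent alone, the second group received *miR-139-5p* and the third received *miR-139-3p*, all with Lipofectamine RNAiMAX. Per the study's methods, miRNA precursors were used at 10 nM. Total RNA of each group was labelled with Cy3 and read on 1 array of 1 colour, so each of the 3 groups is 1 sample on 1 array and no test between groups was possible. The mock group controls for the reagent and not for the entry of a small RNA into the cell. An array of a control miRNA was not analysed here.

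Plasminogen is a circulating proenzyme that is cut to plasmin, a protease that dissolves fibrin and degrades the matrix around cells. The cut is made by urokinase, which acts mainly at the cell surface when bound to its receptor, or by tissue-type activator, which acts mainly on fibrin. Serpins trap both activators in inactive complexes, and tissue factor starts the coagulation that lays the fibrin down. Carcinoma cells are known to secrete urokinase and to carry its receptor during invasion.

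The mature sequences of both transfected miRNAs are shown because they name the treatments compared. They are taken from RefSeq on build GRCh38.p14, written 5′ to 3′, with the seed of bases 2 to 8 in capitals. Both come from the minus strand of chromosome 11, *miR-139-5p* from chr11:72615102-72615124 and *miR-139-3p* from chr11:72615066-72615088.
hsa-miR-139-5p: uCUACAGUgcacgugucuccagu
hsa-miR-139-3p: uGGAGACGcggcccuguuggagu
At 2 of the 7 seed positions both hold the same base, so the arms belong to different seed families.

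On the 3 arrays, 48.1% to 53.1% of 60901 spots were well above background and none was saturated. Values are given as the scanner software's processed signal, which is background-subtracted but not normalized, with the software's own error. Differences are on the log2 scale after each array was divided by its 75th percentile. For a gene the difference was averaged over those probes that stood well above background on each of the arrays compared, and a difference beyond 0.5 in either direction is called lower or higher. Mock and *miR-139-5p* lay on the same slide and scan and *miR-139-3p* on another, so slide and transfection cannot be told apart in the *miR-139-3p* comparisons. All 3 comparisons share arrays. Fewer cells expressing a gene and less RNA per cell cannot be told apart in such samples. All 5 epithelial markers (*KRT8*, *KRT18*, *KRT19*, *EPCAM* and *CDH1*) were well above background on every array. Their summed brightest signal was 102000 on mock, 63100 on *miR-139-5p* and 60500 on *miR-139-3p*. In the same order, *KRT18* had 73800, 46900 and 42500, and *KRT8* had 18900, 10200 and 9030. *KRT19* had 8320, 5500 and 8170, *EPCAM* 218, 233 and 369, and *CDH1* 351, 230 and 391. The sum of *NQO1*, *AKR1B10* and *AKR1C1*, which are high in A549 cells, was 79500, 84100 and 33100. Singly, *AKR1B10* had 53400, 62500 and 18500, *AKR1C1* 25300, 20900 and 13800, and *NQO1* 786, 642 and 714. Of 5 alveolar markers, *SFTPC* (17.3, 11.3 and 7.66) and *NAPSA* (17.7, 11.1 and 25.7) were well above background on every array, while *NKX2-1*, *SFTPA1* and *SFTPB* were so on none. Of markers of other cell types, *PECAM1*, *COL3A1* and *DCN* were on no array well above background. The fibroblast marker *COL1A1* (40.1, 101 and 22.7) and the endothelial marker *CDH5* (14.5, 11.4 and 25.1) were so on every array. The endothelial marker *VWF* (6.28, 5.06 and 11.2) was so on some arrays but not on all. The leukocyte marker *CD14* had signals of 292 on mock, 304 on *miR-139-5p* and 64.0 on *miR-139-3p*, while *PTPRC* had 10.3, 10.2 and 20.1, so that their sum was 303, 314 and 84.2. The summed brightest signal of the fibroblast list was 42.2, 104 and 25.3 in the same order, and that of the endothelial list was 22.6, 18.8 and 37.4. The part of these in the results was not tested.

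*PLAU*, *PLAT*, *PLAUR*, *SERPINE2*, *F3* and *SRPX2*, the 6 members with a measurable difference, were all lower on the *miR-139-3p* array than on the mock array. The differences ran from -2.60 for *SERPINE2* to -0.79 for *PLAU*, with a median of -1.07, against a median of -0.13 over all protein-coding genes. Of 13551 protein-coding genes with a value in this comparison, 30.5% were lower by the same rule and 23.0% were higher, and over all names on the array 21.8% were lower. *SRPX2* is in the study's own list of genes that were lower on these arrays, so its value is not independent evidence of a direction. On the *miR-139-5p* array, *PLAT* was the 1 member past 0.5, and it was higher than on mock.

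**Figure D1:**
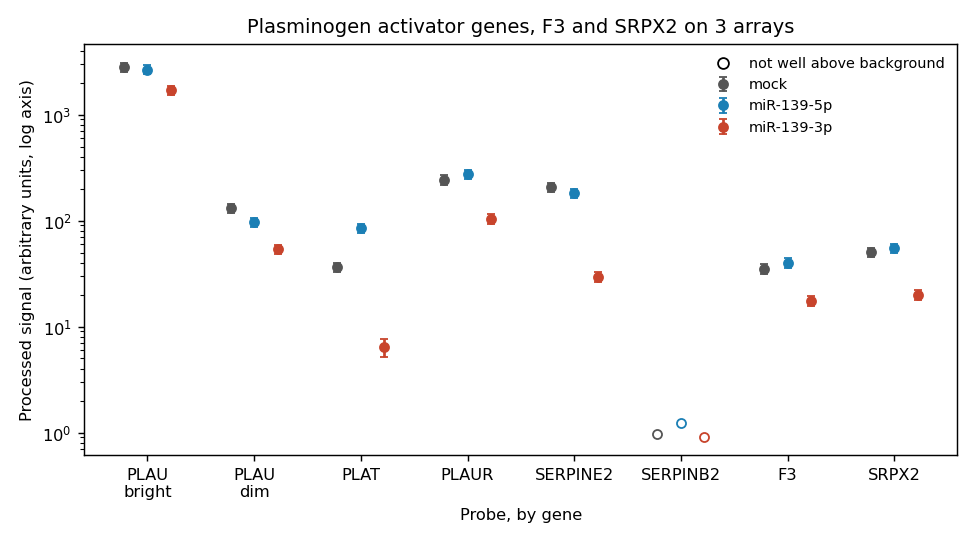
Processed signal (arbitrary units, log axis) of the 8 probes of the 7 genes on the 3 arrays (mock in grey, miR-139-5p in blue, miR-139-3p in red), with the scanner software's error as bars and open circles for probes not well above background. The miR-139-3p point is the lowest for every probe above background, and PLAT is at 84.3 on the miR-139-5p array and 6.43 there. Heights are not comparable between probes.

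Urokinase, the product of *PLAU*, was read by a bright and a dim probe assigned to different RefSeq transcripts. The bright probe gave signals of 2810 ± 281 on mock, 2660 ± 266 on *miR-139-5p* and 1700 ± 170 on *miR-139-3p* (scanner error, 1 spot each). The dim probe gave 131 ± 13.1, 96.2 ± 9.7 and 53.8 ± 5.49 on the same arrays. Both probes were lowest on the *miR-139-3p* array, and both were highest on mock. Against mock, the scaled log2 difference for *miR-139-3p* was -0.52 ± 0.20 by the bright probe and -1.07 ± 0.21 by the dim one. Their mean was -0.79 with an SD between the probes of 0.39, or 1.73-fold lower. In this comparison genes with several probes, 3889 of them, had a median SD of 0.28 between their probes. For *miR-139-5p* against mock the probes gave -0.01 ± 0.20 and -0.37 ± 0.21, and neither passed 0.5. Directly between the miRNAs the mean was -0.61, with the probes at -0.51 and -0.70. It lay within 0.5 when the percentile was taken over detected probes (-0.45) and under normexp correction (-0.49).

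Tissue-type activator, the product of *PLAT*, was read by a probe printed in 10 spots on each array. The spots ranged from 32.4 to 39.6 on mock, with a median of 36.3. On *miR-139-5p* they ranged from 78.5 to 94.5, with a median of 84.2. On *miR-139-3p* they ranged from 3.28 to 9.89, with a median of 6.51. The spots of the 3 arrays did not overlap, although spots of 1 array share its RNA and are not replicates of the transfection. Against mock, *PLAT* was 4.87-fold lower on *miR-139-3p* (log2 difference -2.28, scanner error 0.33) and 2.45-fold higher on *miR-139-5p* (1.29, scanner error 0.21). Its direct difference between the miRNAs was -3.58, or 11.9-fold. Among protein-coding genes, 10 of 13449 (0.0744%) had a difference that low or lower between the miRNAs, *PLAT* included. In *miR-139-5p* against mock, 110 of 13195 (0.834%) were as high or higher. On the *miR-139-3p* array the probe lay near the floor of the measurement. There 8 of its 10 spots were well above background, and the SD between spots was 0.45 on the log2 scale, against 0.08 on mock and 0.09 on *miR-139-5p*. Under normexp background correction, which adds an offset of 50 to every signal, the *miR-139-3p* difference from mock shrank to -0.43 and was no longer past 0.5. The excess on *miR-139-5p* was 0.67 and the direct difference between the miRNAs -1.11 under the same correction, and both were still past 0.5.

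*PLAUR* encodes the urokinase receptor, a lipid-anchored surface protein that holds urokinase at the cell membrane. Its probe gave 243 ± 24.3 on mock, 274 ± 27.4 on *miR-139-5p* and 104 ± 10.5 on *miR-139-3p*. The first 2 values lay close together and the third lay apart. The *miR-139-3p* array was 2.02-fold below mock (-1.02, scanner error 0.20) and 2.4-fold below *miR-139-5p* (-1.26). The difference of *miR-139-5p* from mock was 0.25 and within 0.5.

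*SERPINE2* encodes protease nexin 1, a serpin that traps urokinase, tissue-type activator and thrombin. Its probe gave 207 ± 20.7 on mock, 182 ± 18.2 on *miR-139-5p* and 29.6 ± 3.11 on *miR-139-3p*. Mock and *miR-139-5p* differed by -0.11, less than the scanner error of 0.20. The *miR-139-3p* array was 6.06-fold below mock (-2.60, scanner error 0.21) and 5.6-fold below *miR-139-5p* (-2.49). Of 13551 protein-coding genes, 64 (0.472%) were as low or lower against mock, itself included, and this was the largest difference from mock among the members.

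*SERPINB2* encodes plasminogen activator inhibitor 2, a mostly intracellular serpin. Its probe gave 0.967 on mock, 1.24 on *miR-139-5p* and 0.916 on *miR-139-3p*, and was not well above background on any array. No difference is therefore given for it. The inhibitor side of the members is represented by *SERPINE2* alone.

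Tissue factor, the product of *F3*, is the membrane receptor for coagulation factor VII. Its signal was 35.2 ± 3.66 on mock, 40.1 ± 4.17 on *miR-139-5p* and 17.5 ± 2.0 on *miR-139-3p*. The *miR-139-3p* array was 1.74-fold below mock (-0.80, scanner error 0.22) and 2.08-fold below *miR-139-5p* (-1.06). *miR-139-5p* was 0.26 above mock, close to the scanner error of 0.21. In rank, 18.5% of protein-coding genes were as low or lower than *F3* against mock, near the 18.6% for *PLAU*. These were the smallest differences of the members in the main processing only. With quantile normalization *PLAUR* (-0.98) had a smaller difference than *F3* (-1.11). Under normexp *SRPX2* (-0.31) and *PLAT* (-0.43) had smaller ones than *PLAU* (-0.64).

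*SRPX2* encodes a secreted sushi-repeat protein that is known to bind the urokinase receptor. Its signal was 50.4 ± 5.14 on mock, 54.6 ± 5.57 on *miR-139-5p* and 20 ± 2.2 on *miR-139-3p*. The *miR-139-3p* array was 2.19-fold below mock (-1.13, scanner error 0.22) and 2.49-fold below *miR-139-5p* (-1.32). The difference of 0.19 between *miR-139-5p* and mock was below its scanner error of 0.21. Against mock, 10.2% of protein-coding genes were as low or lower on *miR-139-3p*, and 12.5% were for its partner *PLAUR*. Under normexp correction the difference of *miR-139-3p* from mock was -0.31 for *SRPX2* and -0.26 for *F3*, and that from *miR-139-5p* was -0.47 and -0.36. All 4 then lay within 0.5.

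**Figure D2:**
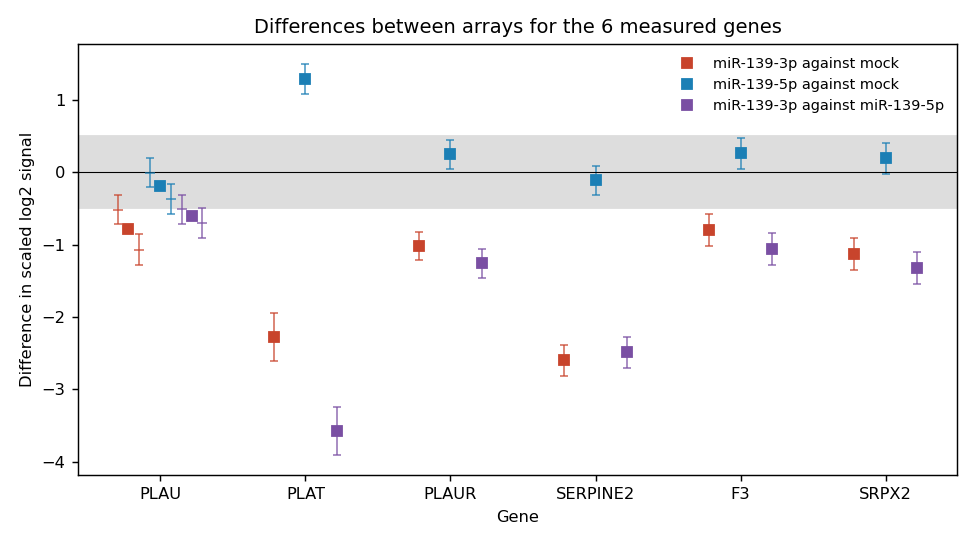
Difference in scaled log2 signal for the 6 genes with a value in the 3 comparisons (squares), with the scanner software's error of each probe as bars, drawn beside the square for the 2 PLAU probes. The grey band marks 0.5 on either side of 0, and only PLAT leaves it upward, at 1.29 for miR-139-5p against mock.

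Across the members, the *miR-139-3p* array held the lowest value for 6 of the 6 measured genes. The highest value was on *miR-139-5p* for *PLAT*, *PLAUR*, *SRPX2* and *F3*, and on mock for *PLAU* and *SERPINE2*. Apart from *PLAT*, the order of mock and *miR-139-5p* rested on gene differences of at most 0.26 and is not settled by single arrays. In *miR-139-5p* against mock, 0 members were lower, 1 was higher and 5 were within 0.5, with a median of 0.22 against -0.01 for all protein-coding genes, of which 12.2% were lower and 10.6% higher. Between *miR-139-3p* and *miR-139-5p* 6 of the 6 were lower, with a median of -1.29 against -0.11, where 30.6% of protein-coding genes were lower and 23.0% higher. The E1A spike-in RNA, read by 7 probes, had a median unscaled difference of 0.02 between *miR-139-3p* and mock, and scaling by it in place of the percentile kept the same 6 genes lower, whereas normexp correction left 3 of the 6 lower in each of the *miR-139-3p* comparisons.

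**Figure D3:**
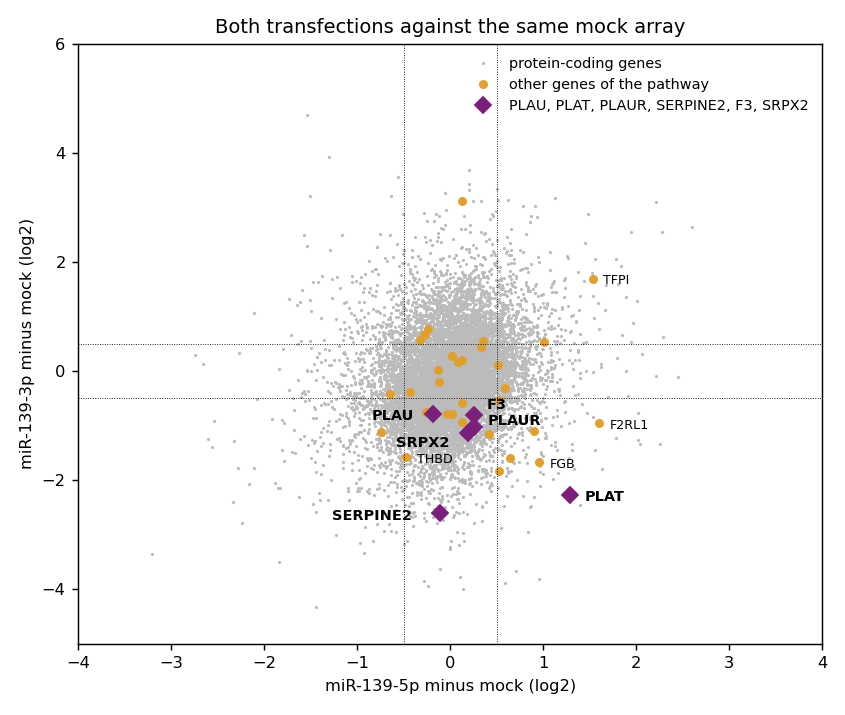
Scaled log2 difference from mock for miR-139-5p (horizontal axis) against that for miR-139-3p (vertical axis) for 12318 protein-coding genes measured on all 3 arrays, with the 6 members as diamonds and other pathway genes as orange points. Both axes use the same mock array, so its error moves points along the diagonal. PLAT stands at 1.29 and -2.28, away from the body of genes.

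*PLAT* had few neighbours in this plane. Of 13901 named genes measured on all arrays, the nearest to it by the distance between the pairs of differences from mock was *CLDN2*, a claudin of epithelial tight junctions (1.39 for the first miRNA arm, *miR-139-5p*, and -2.46 for the other, distance 0.196), followed by *ADAMTS9*, a secreted metalloprotease (1.11 and -1.98, distance 0.355). *SERPINE2* was nearest to *ASF1B*, a histone chaperone (-0.20 and -2.61, distance 0.085), and *CACNG6* (-0.17 and -2.53, distance 0.094). The other members lay in denser places, where many genes have like pairs of values and a short distance says little. There the nearest were *PMM1* and *PRODH* for *PLAU*, *EVL* and *TMPPE* for *PLAUR*, *PSMG1* and *REXO5* for *SRPX2*, and *HNRNPR* and *TMPO* for *F3*, at distances from 0.007 to 0.018.

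Another 43 genes of the pathway were grouped by role. Of the 35 with a value in *miR-139-3p* against mock, 15 (42.9%) were lower, 8 (22.9%) higher and 12 not called, with a median of -0.38, where the shares of all protein-coding genes were 30.5% and 23.0%. In *miR-139-5p* against mock, 3 of 34 (8.82%) were lower and 10 (29.4%) higher, with a median of 0.13, beside 12.2% and 10.6% of all protein-coding genes. Between the miRNAs, 14 of 34 (41.2%) were lower and 5 (14.7%) higher, beside 30.6% and 23.0%. Over the alternatives that kept the threshold of 0.5, the pathway genes lower and higher numbered 12 to 20 and 3 to 10 in *miR-139-3p* against mock, 1 to 5 and 4 to 11 in *miR-139-5p* against mock, and 12 to 18 and 1 to 6 between the miRNAs. With no scaling *miR-139-3p* against mock gave 20 lower and 4 higher. There 5559 protein-coding genes were lower and 2244 higher, in place of 4131 and 3111. Under normexp *miR-139-5p* against mock gave 1 lower and 4 higher. There 605 protein-coding genes were lower and 467 higher, in place of 1605 and 1401.

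**Figure D4:**
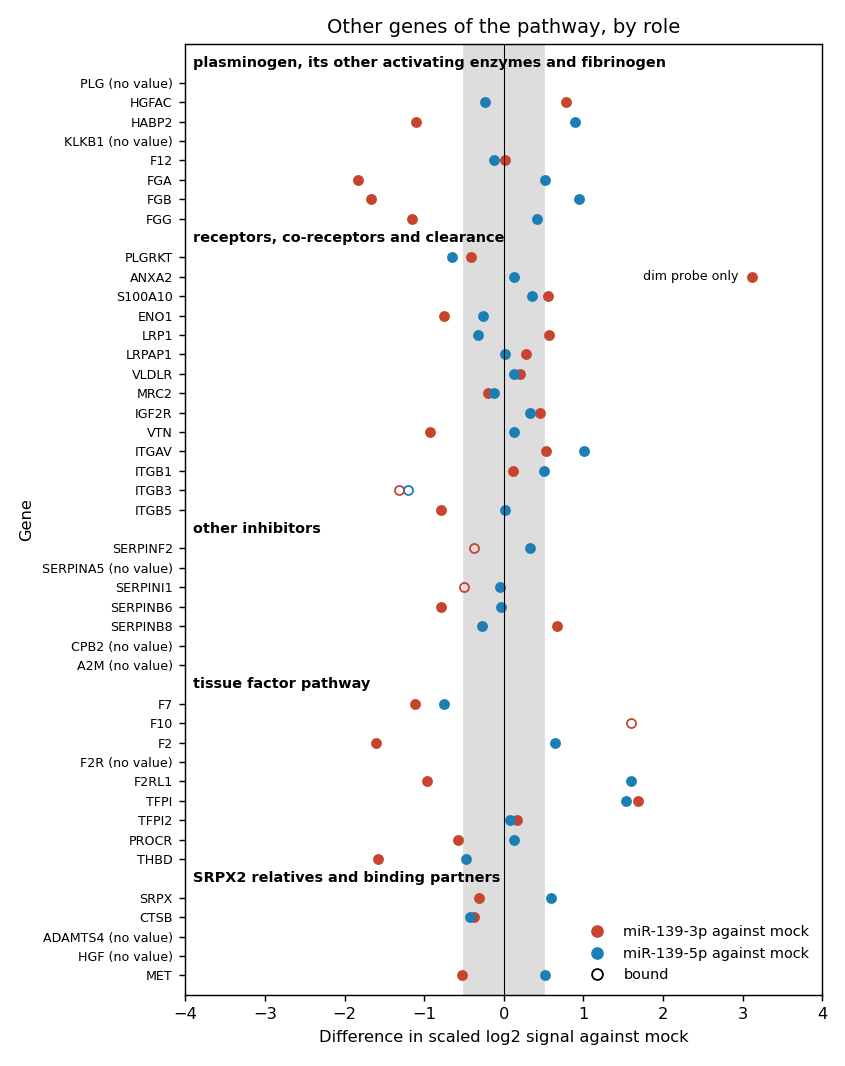
Scaled log2 difference from mock on the miR-139-3p (red) and miR-139-5p (blue) arrays for the 43 other genes of the pathway by role, with open circles for bounds, where a probe was above background on 1 of the 2 arrays. The fibrinogen genes FGA, FGB and FGG lie left of 0 for miR-139-3p and right of 0 for miR-139-5p. The ANXA2 point at 3.12 rests on a dim probe alone.

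Plasminogen itself (*PLG*) was not well above background on any array, nor was *KLKB1*, which encodes plasma prekallikrein. Of the 6 genes with a value among plasminogen, related proteases and fibrinogen, 4 (66.7%) were lower on *miR-139-3p* and 1 (16.7%) was higher. Their median was -1.13, and 30.5% and 23.0% of all protein-coding genes were lower and higher. The fibrinogen chains, the substrate of plasmin in clots, were all lower there, *FGA* by -1.83 over 3 probes, *FGB* by -1.67 and *FGG* by -1.16. *HABP2*, a plasma protease that can activate urokinase, was at -1.10, and *HGFAC*, the activator of hepatocyte growth factor, was higher at 0.78. Under normexp 3 genes of the list were lower and 0 higher, and with no filter on dim probes 5 were lower and 2 higher. On *miR-139-5p* against mock, *FGB* (0.95), *HABP2* (0.90) and *FGA* (0.52) were higher and none of the list was lower. The 3 probes of *FGA* gave 0.29, 0.41 and 0.85, so its call is close to the threshold. The count of 3 higher genes was 2 under 5 of the alternatives, 1 under normexp, 4 with E1A scaling and 0 with a threshold of 1.

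Among receptors, co-receptors and clearance proteins, 4 of 14 (28.6%) were lower and 4 (28.6%) higher on *miR-139-3p*, with a median of 0.16. Of all protein-coding genes, 30.5% were lower and 23.0% higher. With no scaling the counts of the list were 5 and 1. *ENO1* (-0.75), an enzyme of glycolysis that also binds plasminogen, *VTN* (-0.93), the matrix protein vitronectin that the urokinase receptor binds, and the integrin *ITGB5* (-0.79) were lower. *ITGB3* was at least 2.5-fold lower on *miR-139-3p* and at least 2.32-fold lower on *miR-139-5p*, since its probe was above background on mock alone. *S100A10*, a plasminogen receptor subunit, was at 0.56, *LRP1*, which clears complexes of activators and serpins, at 0.57, and the integrin *ITGAV* at 0.53. On *miR-139-5p*, *ITGAV* was at 1.01 and *ITGB1* at 0.51, and the plasminogen receptor *PLGRKT* was at -0.65. *S100A10* and *LRP1* were within 0.5 there, at 0.35 and -0.33. The latter value rests on the dim *LRP1* probe, as the brighter one was marked as an outlier on *miR-139-5p* and gave -0.23 when kept. On *miR-139-3p* the *LRP1* probes gave 0.50 and 0.64. *ANXA2*, the partner of *S100A10*, was at 3.12 on *miR-139-3p* by a dim probe. Its bright probe, with signals of 41400 on mock and 28500 on *miR-139-3p*, was marked as an outlier on the latter array and left out. With that spot kept, the bright probe gave -0.33, so the probes disagree and no direction is given for this gene, which is 1 of the 4 counted as higher.

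Beside 30.5% lower and 23.0% higher of all protein-coding genes, the 7 other inhibitors were few. Of them 4 had a value, of which 1 (25.0%) was lower and 1 (25.0%) higher on *miR-139-3p* than on mock. The other 2, *SERPINF2* and *SERPINI1*, a serpin of nerve tissue, have bounds of -0.37 and -0.50 and may lie lower, so the count of 1 lower is a minimum. With no scaling, with quantile normalization and with the deposited values, 3 were lower and 0 higher. The intracellular serpin gene *SERPINB6* was at -0.79 by 1 probe, as its brighter probe was marked as an outlier and gave -0.51 when kept, and *SERPINB8* was higher at 0.67. *SERPINF2*, the gene of antiplasmin, was at least 1.63-fold lower on *miR-139-3p* than on *miR-139-5p*. *SERPINA5*, *CPB2* and *A2M* were not well above background on any array. In *miR-139-5p* against mock, none of the 4 with a value passed 0.5.

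In the tissue factor pathway, 5 of the 8 genes with a value (62.5%) were lower on *miR-139-3p* than on mock and 2 (25.0%) were higher. Their median was -0.77, and 30.5% and 23.0% of all protein-coding genes were lower and higher. Those lower in the list were *F7* (-1.11), the ligand of tissue factor, *F2* (-1.60), which encodes prothrombin, and *F2RL1* (-0.96), a receptor cut by the tissue factor complex. *THBD* (-1.58) and *PROCR* (-0.58), surface proteins of the protein C system, were lower too. The lower count was 4 under normexp, with the percentile over detected probes and with quantile normalization. The higher count was 1 under normexp. *TFPI*, the inhibitor of the tissue factor complex, was higher on *miR-139-3p* by 2.32 and 1.05 with its 2 probes and on *miR-139-5p* by 1.51 and 1.55. *F10*, encoding the factor that the complex activates, was at least 3.02-fold higher on *miR-139-3p*. On *miR-139-5p*, *F2RL1* was 3.03-fold higher (1.60), *F2* was at 0.64 and *F7* at -0.75. The thrombin receptor gene *F2R* had no value because its spot was marked as an outlier on mock and *miR-139-5p*. With the marked spots kept, *F2R* was at 1.23 for *miR-139-5p* against mock and 0.1 for *miR-139-3p* against mock. Between the miRNAs it was then at -1.13.

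Of the relatives and binding partners of *SRPX2*, *MET*, the receptor of hepatocyte growth factor, was at -0.52 on *miR-139-3p* and 0.52 on *miR-139-5p*. The former lay within 0.5 with the percentile over detected probes, quantile normalization, E1A scaling and the deposited values, while with no scaling all 3 genes of the list with a value were lower. *SRPX*, the closest relative of *SRPX2*, was higher on *miR-139-5p* at 0.59 and within 0.5 on *miR-139-3p* at -0.31. The 2 genes called higher on *miR-139-5p*, *MET* and *SRPX*, became 1 with no scaling or with the percentile over detected probes and 0 under normexp. *CTSB*, a lysosomal protease, was within 0.5 in both. *HGF* and *ADAMTS4* were not well above background on any array.

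Promoters of the members were searched for 1 motif only, the AP-1 motif TGANTCA, which reads the same way on both strands. Each window ran from 250 bases before to 50 bases after a start (RefSeq, build GRCh38.p14). The motif was present in 2707 of 35116 windows of this length (7.71%). The search covered 6 of the 7 members, in 8 windows, and no window of *PLAT* was searched. Of the 8 windows, 4 held the motif, 1 each of *PLAUR*, *SRPX2*, *F3* and the unmeasured *SERPINB2*. The stretches around it in the 3 measured genes are shown 5′ to 3′ on the strand of the gene, with the motif in capitals.
PLAUR, chr19:43670339-43670365, minus strand: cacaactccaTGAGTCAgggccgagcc
SRPX2, chrX:100644080-100644106, plus strand: tatgtcatgcTGAGTCAtaaaaagaag
F3, chr1:94541958-94541987, minus strand: gcggtTGAATCActggggTGAGTCAtccct
*F3* held 2 copies and the others 1. The windows of *PLAU* and *SERPINE2* did not hold these letters, which says nothing of a factor. A match is a description of the sequence and was not tested as a site.

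**Figure D5:**
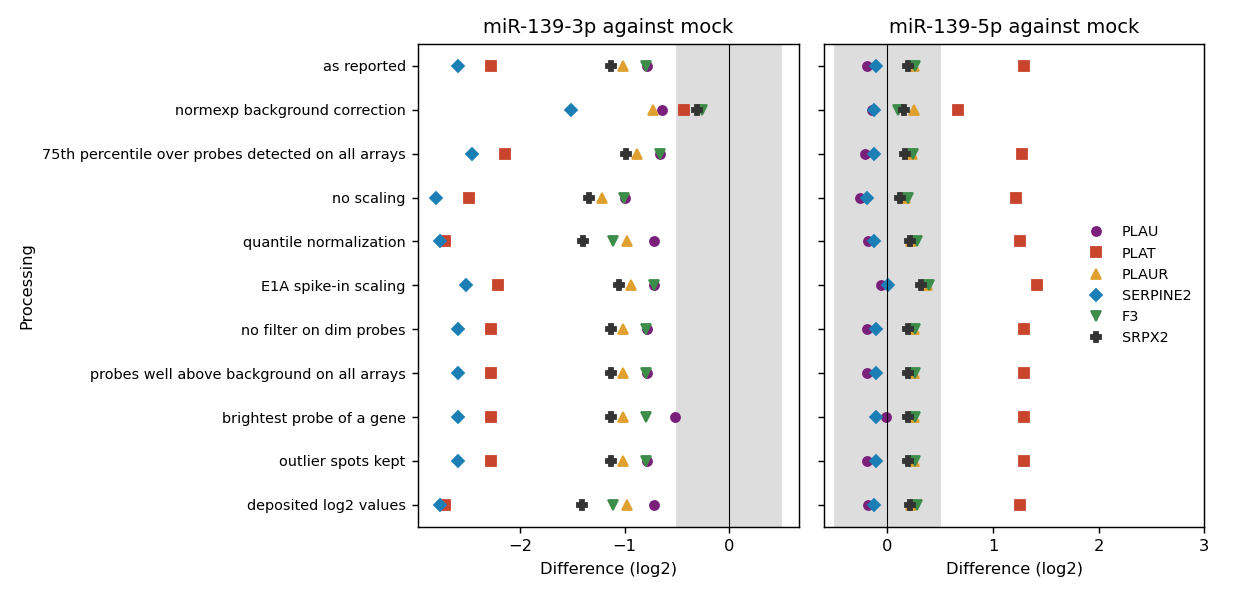
Scaled log2 difference from mock of the 6 measured genes on the miR-139-3p array (left) and the miR-139-5p array (right) under each way of processing the spots, with the grey band at 0.5 on either side of 0. All miR-139-3p points lie left of 0, and PLAT, SRPX2 and F3 enter the band under normexp background correction, at -0.43, -0.31 and -0.26.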

How the data were processed

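RNA of A549 cells was hybridised to 3 arrays of 1 colour, 1 per transfection, with each miRNA at 10 nM per the study's methods. For every spot the authors deposited a processed intensity with its error, and the median intensities of spot and background, read by Agilent Feature Extraction 12.1.1.1, with no normalization between arrays. They also deposited log2 values per probe. These matched the quantile-normalized log2 signals with a median absolute difference of 0.003 and were used as an alternative.

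Here each processed intensity was divided by the 75th percentile of its array, taken over spots other than controls, and put on the log2 scale. Spots with an outlier flag on the spot or its background (614 on mock, 935 on *miR-139-5p* and 1526 on *miR-139-3p*) were left out, and spots of a probe were averaged. A probe was well above background where at least 50% of its spots were. Where a probe was so on 1 of the 2 arrays, a bound was computed against the lowest signal well above background on the other. Probes were named through their accession in RefSeq (GRCh38.p14), and 24751 of 25277 with an NM accession matched. The arrays were designed on hg19, so coordinates are given only for the miRNA and promoter sequences, on the build of their RefSeq tables.

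Precision is limited by the number of arrays. The median SD between spots of probes with 10 spots was 0.05 to 0.06 on the log2 scale, which holds no spread between cultures, and the scanner error of a difference combines the software's errors of both arrays. With 1 array per condition, differences are given without a test or a p-value. All members are named with every probe. Of the role lists, genes past 0.5 in any comparison are named, *PLG*, *LRP1* and *S100A10* whatever their value, and for each member the 2 genes nearest in pattern. A gene of the inhibitor list and a marker are not reported here. The members and lists were chosen with earlier results of these data known. Alternatives were normexp correction on median intensities (limma 3.58.1, R 4.3.3), 4 other scalings, other probe filters, a threshold of 1 and the deposited values. Python 3.11.15 with pandas 2.3.3 and numpy 2.4.6 was used, and steps were tested on simulated data.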

Additional observations from a re-analysis of the deposited data

How the results depend on the processing

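No paired analysis was possible because each condition had 1 array. Of the 11 alternatives, none reversed a called difference of a member. The 6 members lower on *miR-139-3p* than on mock became 3 under normexp correction (*PLAU*, *PLAUR* and *SERPINE2*) and 4 with a threshold of 1, and the 6 lower than on *miR-139-5p* became 3 under normexp, 5 with the percentile over detected probes (*PLAU* lost) and 5 with a threshold of 1. Normexp also started from median signals and added an offset of 50, and these were not varied apart. *PLAT* was the 1 member higher on *miR-139-5p* under all 11. Over 10 alternatives the difference of *miR-139-3p* from mock ranged from -2.72 to -0.43 for *PLAT*, -2.81 to -1.51 for *SERPINE2*, -1.41 to -0.31 for *SRPX2*, -1.22 to -0.73 for *PLAUR*, -1.11 to -0.26 for *F3* and -1.0 to -0.52 for *PLAU*.

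Counts of protein-coding genes moved too. Under normexp *miR-139-3p* against mock went from 4131 lower and 3111 higher to 2858 and 1186, *miR-139-3p* against *miR-139-5p* from 4116 and 3094 to 2774 and 1261, and *miR-139-5p* against mock went from 1605 lower and 1401 higher to 605 and 467. In that comparison E1A scaling gave 1025 lower and 2159 higher, and no filter on dim probes gave 2204 lower and 2110 higher. The share of lower genes among those past 0.5 in *miR-139-3p* against mock was 57.0%, and 70.7% under normexp, 71.2% with no scaling and 46.8% with the percentile taken over detected probes. Against *miR-139-5p* it was 57.1%, and 68.7% under normexp and 45.0% with that percentile. For *miR-139-5p* against mock it was 53.4%, and 66.1% with no scaling and 32.2% with E1A scaling. The median of measured protein-coding genes in *miR-139-3p* against mock was -0.15, and -0.36 with no scaling, -0.02 with detected probes and 0.05 with no filter on dim probes. In *miR-139-5p* against mock E1A scaling moved it from 0.00 to 0.13. Of 330 counts over the role lists and alternatives, 63 moved by more than 1.5 times. The causes were not tested.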
